A study of Mus musculus with 41 samples.

Results

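The 10 transcription factors described here, Nanog, Klf2, Klf4, Klf5, Esrrb, Tfcp2l1, Tbx3, Prdm14, Zfp42 and Nr0b1, form the core of the naive pluripotency network of mouse embryonic stem cells. They were taken by name as known members of this network and are 10 of the 24028 gene symbols in the deposited RNA-seq files. Each had a single row in every file. The files give FPKM, fragments scaled to transcript length and to mapped library size, so levels can be set against each other between genes.

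The study cultured androgenetic haploid embryonic stem cells (AG-haESCs), which carry only a paternal genome, in different media. All lines were on a C57BL/6 background, TSa2i-14 with an actin-EGFP transgene that TSa2i-C57 lacks, and were grown on mouse fibroblast feeder cells. In 2i/L medium (serum, LIF, the MEK inhibitor PD0325901 and the GSK3 inhibitor CHIR99021) the wild-type line 2i-14 gave 3 libraries, at p18, p39 and p50. Also in 2i/L were 1 library of 2i-O48, which lacks H19-DMR and IG-DMR, and 1 library of 2i-O48-TKO, which lacks H19 in addition. There were 5 wild-type libraries in TSa2i/L, whose lines were started in a serum-containing form of the medium and then kept without serum. TSa2i-C57 was sampled at p9 and at p58, and TSa2i-14 at p22, at p47 and again at p54. Each of the 3 lines above also gave 1 library after 5 passages in SF/a2i/L, called switched here. SF/a2i/L is serum-free, keeps LIF and CHIR99021 and has the Src inhibitor CGP77675 in place of PD0325901, and the labels describe the same composition for the TSa2i lines and for the switched cells. The inhibitor and the serum therefore changed together and cannot be told apart. All 3 wild-type 2i/L libraries came from a single line, so for derived cells the medium and the line cannot be told apart either. Libraries of a line are passages of that line, and p-values measure the spread between these libraries.

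Naive pluripotency is held by a set of transcription factors that bind each other's genes together with Oct4 and Sox2. LIF acts through STAT3, whose targets include Klf4, and GSK3 inhibition releases the repression that Tcf7l1 places on Esrrb, Tfcp2l1, Klf2 and Nanog. MEK-ERK signalling pushes cells out of the naive state, and the Klf factors can stand in for each other in part.

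For 7 of the 10 factors a RefSeq promoter was at hand, on build GRCm38.p6. The 250 bases before the start site are shown for Klf2 and Klf4, whose mean differences between media had opposite signs, for Nanog, which fell after the switch, and for Zfp42, whose level moved least. Capitals mark matches, on either strand, to the KLF or SP motifs, which are GGGCGGG in its GC-box form and GGGTGTG in its GT-box form. They also mark ATTTGCAT, the octamer that Oct4 binds. Klf2 is on the + strand at chr8:72318812-72319061, Klf4 on the - strand at chr4:55532476-55532725, Nanog, at the first of its listed starts, on the + strand at chr6:122707239-122707488, and Zfp42 on the - strand at chr8:43307010-43307259.
Klf2: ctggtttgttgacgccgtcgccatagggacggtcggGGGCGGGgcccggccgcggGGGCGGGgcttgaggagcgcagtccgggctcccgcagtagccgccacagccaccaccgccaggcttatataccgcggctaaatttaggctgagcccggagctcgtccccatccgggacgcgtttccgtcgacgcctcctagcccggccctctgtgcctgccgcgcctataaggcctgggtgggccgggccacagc
Klf4: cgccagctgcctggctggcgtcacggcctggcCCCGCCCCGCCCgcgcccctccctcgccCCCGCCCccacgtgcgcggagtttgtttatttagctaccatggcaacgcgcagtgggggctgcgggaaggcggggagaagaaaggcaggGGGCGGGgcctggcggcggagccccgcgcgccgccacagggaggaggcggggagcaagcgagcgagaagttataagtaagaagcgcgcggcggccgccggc
Nanog: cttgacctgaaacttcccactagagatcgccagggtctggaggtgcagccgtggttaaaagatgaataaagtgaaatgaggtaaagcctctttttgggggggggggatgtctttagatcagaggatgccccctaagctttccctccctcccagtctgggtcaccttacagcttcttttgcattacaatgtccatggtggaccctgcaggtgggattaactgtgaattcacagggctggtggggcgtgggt
Zfp42: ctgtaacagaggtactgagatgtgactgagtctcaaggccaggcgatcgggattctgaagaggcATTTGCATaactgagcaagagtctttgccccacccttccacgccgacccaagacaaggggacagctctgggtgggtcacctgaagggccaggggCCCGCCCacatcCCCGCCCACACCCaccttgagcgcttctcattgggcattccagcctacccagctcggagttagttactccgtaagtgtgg

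The Klf2 window held 2 matches to GGGCGGG and the Klf4 window held 4, of which 2 overlap the same stretch of Cs and Gs; 23.4% of 32851 promoter windows of this length held at least 1. Nanog, Tfcp2l1 and Nr0b1 had no exact match to any motif searched. The search allowed no differing letter, and the Nanog window holds TTTTGCAT, which differs from ATTTGCAT in its first letter. The lack of a match is therefore not the lack of a site. Zfp42 held 1 ATTTGCAT, found in 1.60% of windows, and 1 GGGTGTG, found in 6.93%, whose letters overlap 1 of 2 GC-box matches. TTCNNNGAA, the STAT motif, was present before the first Esrrb start, with 1 GT-box match, and in 7.02% of all windows. The TCF motif was searched as CTTTGAA, held by 4.46% of all windows, and as CTTTGAT, held by 3.21%, and the ESRRB motif as AAGGTCA, held by 4.08%. None of the windows of the 7 factors held any of these. These are matches of letters and not measured binding.

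All 10 factors were on in all 13 libraries, with the lowest single value being 1.92 FPKM for Tbx3. Implied depths were 12700000 to 20100000 fragments per library, at which 3 fragments on a transcript of 1 kb are worth 0.15 to 0.236 FPKM, so each factor stood well above this floor. The 7 pluripotency markers were all present, at 10.7 FPKM or more, and the primitive endoderm markers stayed at 2.81 FPKM or below. The 6 trophoblast markers were not all low. Krt8 was at 1.066 to 20.01 FPKM and Tfap2c at 3.495 FPKM or more in all 13 libraries. Cdx2, Eomes, Elf5 and Hand1 stayed at 1.656 FPKM or below. The source of the Krt8 and Tfap2c levels was not tested. Fibroblast markers stood apart in 3 libraries, with a mean log2(FPKM + 1) over 15 genes of 2.33 (TSa2i-14, p54), 1.68 (2i-14, p39) and 1.38 (TSa2i-C57, p58), against 0.168 to 0.597 in the other 10. Of the defining fibroblast genes, Dcn reached 58.2 FPKM in TSa2i-14 at p54, and in TSa2i-C57 p58 it was 19.6. In 2i-14 p39 the Dcn level was 3.76 FPKM and that of Col1a1 was 16.9 FPKM. Col1a1 was at 6.37 FPKM in TSa2i-14 p54 but at 1.2 FPKM in TSa2i-C57 p58. In the other 10 libraries Col1a1 was at 0.351 to 1.59 FPKM and Dcn at 3.55 FPKM or below. Col1a1 thus did not set TSa2i-C57 p58 apart, and Dcn in 2i-14 p39 was close to its level in TSa2i-14 p22. In bulk libraries such as these, fewer cells with a gene on and less RNA per cell cannot be told apart. The library of switched 2i-14 also had 67.2% of its summed FPKM on microRNA loci, and 2i-14 p18 had 23.2%.

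Nanog, the homeodomain factor that stabilises self-renewal, was the most abundant of the 10, at 251 ± 93.5 FPKM (mean ± SD over 13 libraries). Nr0b1 (Dax1), an orphan receptor that restrains Oct4 activity, followed at 118 ± 38.1 FPKM, and Zfp42 (Rex1), the zinc finger gene most used to report the naive state, at 95.4 ± 17.6 FPKM. The ranges of Nr0b1 and Zfp42 overlapped, 65.3 to 167 against 75.7 to 139 FPKM. Tfcp2l1, Klf4, Klf2, Esrrb, Klf5 and Prdm14 had means of 28.7, 28.5, 24.5, 20.4, 19.9 and 16.8 FPKM, and the neighbours in this order differed by less than their SDs. Tbx3 was the scarcest, at 3.63 ± 1.52 FPKM, with a highest library of 6.68 FPKM that lay below the lowest Prdm14 library of 7.74 FPKM. Summed over the 10 genes the level ran from 397 FPKM in switched 2i-O48-TKO to 812 FPKM in 2i-O48, and Nanog made up 27.7% to 57.5% of it.

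**Figure D1:**
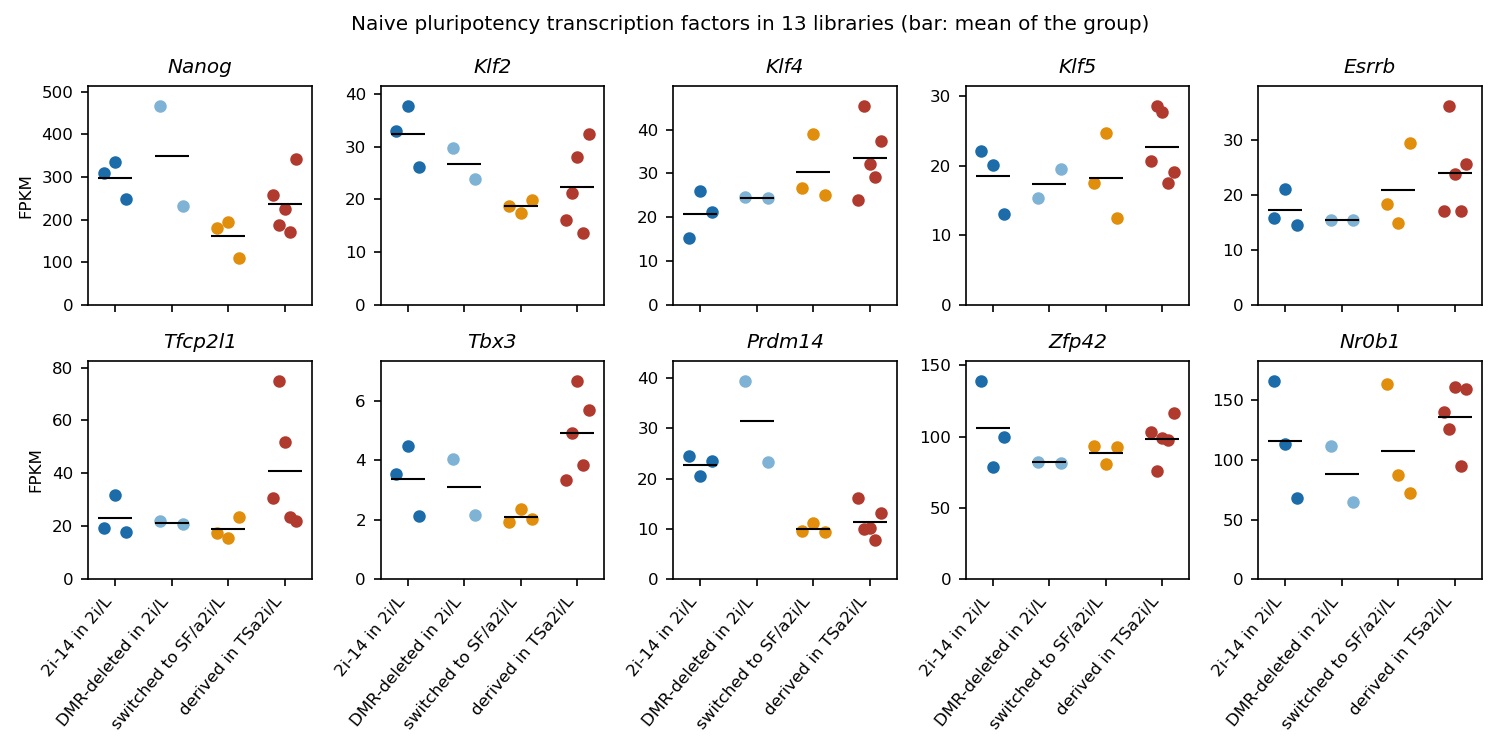
FPKM of the 10 factors (y axes, starting at 0, each with its own scale) in 2i/L for 2i-14 (3 libraries) and for the DMR-deleted lines (2 libraries), in the 3 switched to SF/a2i/L and the 5 derived in TSa2i/L; points are libraries and bars are group means. Prdm14 lies between 7.74 and 16.1 in the 8 switched or TSa2i/L libraries and at 20.6 or more in the 5 in 2i/L. The share of all genes that separate these groups likewise was not counted.

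Wild-type lines derived in TSa2i/L were first compared with 2i-14 in 2i/L. Prdm14 was lower in TSa2i/L and was the only member called. Of the 10 members, 1 passed an adjusted p of 0.05 (limma), in the lower direction, against 7.57% of all 10387 genes tested, with 5.72% called higher and 1.85% called lower.

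Prdm14 encodes a PR-domain protein that represses FGF receptor signalling and de novo DNA methyltransferase genes, and its gene lies on the - strand at chr1:13103538-13117244 (NCBIM37, the mm9 assembly). In the 2i-14 line it was at 24.5 FPKM (p18), 20.6 FPKM (p39) and 23.5 FPKM (p50). In TSa2i-14 it was at 16.1, 9.97 and 10.2 FPKM (p22, p47 and p54), and in TSa2i-C57 at 7.74 and 13.2 FPKM (p9 and p58). Every TSa2i/L library lay below every 2i/L library, as did 4.72% of all genes tested, and no member had all TSa2i/L libraries above, as 11.8% of genes did. The means were 22.8 ± 2.02 (SD, n = 3) and 11.4 ± 3.23 FPKM (SD, n = 5), a log2 difference of -0.97 (SE 0.22) on the log2(FPKM + 1) scale, 1.96-fold lower, with an adjusted p of 0.0238 by limma. The exact two-sided permutation test over all 56 ways to assign the 8 libraries gave p = 0.0357, the smallest this design allows. The call was lost, with adjusted p from 0.0513 to 0.134, in 8 of 18 alternative settings. These were the fit with no filter, the fit with TSa2i-14 only, the fit without the 3 libraries rich in fibroblast markers, and the fits without TSa2i-14 p47, without TSa2i-14 p54 or without any single 2i-14 library. The log2 difference stayed between -1.14 and -0.86 in all 18, and over all of them the adjusted p ran from 0.00559 to 0.134.

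Among the Krüppel-like factors, Klf4 had a higher and Klf2 a lower mean in TSa2i/L, and neither difference passed the test. Klf4, a LIF-STAT3 target, had levels of 15.2 (p18), 26.1 (p39) and 21.2 FPKM (p50) in 2i-14. It was at 23.9, 45.4 and 32.1 FPKM in TSa2i-14 p22, p47 and p54, and at 29.2 and 37.3 FPKM in TSa2i-C57 p9 and p58. The groups overlapped through 2i-14 p39 and TSa2i-14 p22. The log2 difference was 0.66 (SE 0.23, adjusted p = 0.110 by limma), and the exact permutation p was 0.0714.

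Klf2, whose protein is marked for loss by ERK signalling, was at 33.0, 37.8 and 26.2 FPKM in the same 2i-14 libraries. It was at 16.0, 21.3 and 28.0 FPKM in TSa2i-14 p22, p47 and p54 and at 13.7 and 32.5 FPKM in TSa2i-C57 p9 and p58. Its highest library within each medium was 1 of the 3 with raised fibroblast markers (p39 of 2i-14, p58 of TSa2i-C57), and p54 of TSa2i-14 came next in TSa2i/L. The log2 difference was -0.57 (SE 0.27, adjusted p = 0.233 by limma). With the fibroblast marker mean as a covariate, a fit chosen after the data were seen, it was -0.67 (adjusted p = 0.0926, with a range of 0.0926 to 0.496 over 18 alternatives). Klf5, the third of the family, was at 13.1 to 22.2 FPKM in 2i-14 and at 17.5 to 28.6 FPKM in TSa2i/L, a log2 difference of 0.29 (SE 0.23, adjusted p = 0.497).

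The remaining factors did not pass the test. Esrrb, the orphan nuclear receptor downstream of GSK3 inhibition, was at 14.5 to 21.2 FPKM in 2i-14 and 17.1 to 36.3 FPKM in TSa2i/L, a log2 difference of 0.42 (SE 0.25, adjusted p = 0.352 by limma). Tfcp2l1, a grainyhead-family factor fed by LIF and by GSK3 inhibition, was at 17.99 to 31.8 FPKM against 22.1 to 75.1 FPKM, a difference of 0.68 (SE 0.37, adjusted p = 0.312 by limma). Its highest values were the 75.1 and 51.8 FPKM of TSa2i-14 p47 and p54, while TSa2i-C57 was within the range of 2i-14.

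Tbx3, a T-box factor, was at 2.12 to 4.48 FPKM in 2i-14 and 3.35 to 6.68 FPKM in TSa2i/L, a log2 difference of 0.44 (SE 0.25, adjusted p = 0.325 by limma). Its highest values, 6.68 FPKM (TSa2i-14, p54) and 5.70 FPKM (TSa2i-C57, p58), were in libraries with raised fibroblast markers. With the fibroblast marker mean as a covariate, a fit chosen after the data were seen, the Tbx3 difference was 0.35. Without the 3 libraries rich in fibroblast markers it was 0.41, and that of Klf2 was -0.78. The part of fibroblasts in the Tbx3 and Klf2 values was not tested further. Nanog differed by -0.36 (SE 0.21), Nr0b1 by 0.30 (SE 0.27) and Zfp42 by -0.08 (SE 0.20) on the log2 scale, with adjusted p of 0.357, 0.565 and 0.858 by limma. Zfp42 is the member with the smallest difference, with a 95% interval of -0.52 to 0.36. The median log2 difference of the 10 members was 0.29, against 0.07 over all genes tested, but without 2i-14 p50 it was 0.02, against 0.04. Leaving out that library moved Klf5 from 0.29 to 0.07, Tbx3 from 0.44 to 0.21 and Nr0b1 from 0.30 to -0.04. Over all libraries left out singly, Esrrb ran from 0.27 to 0.58 and Tfcp2l1 from 0.42 to 0.92.

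**Figure D2:**
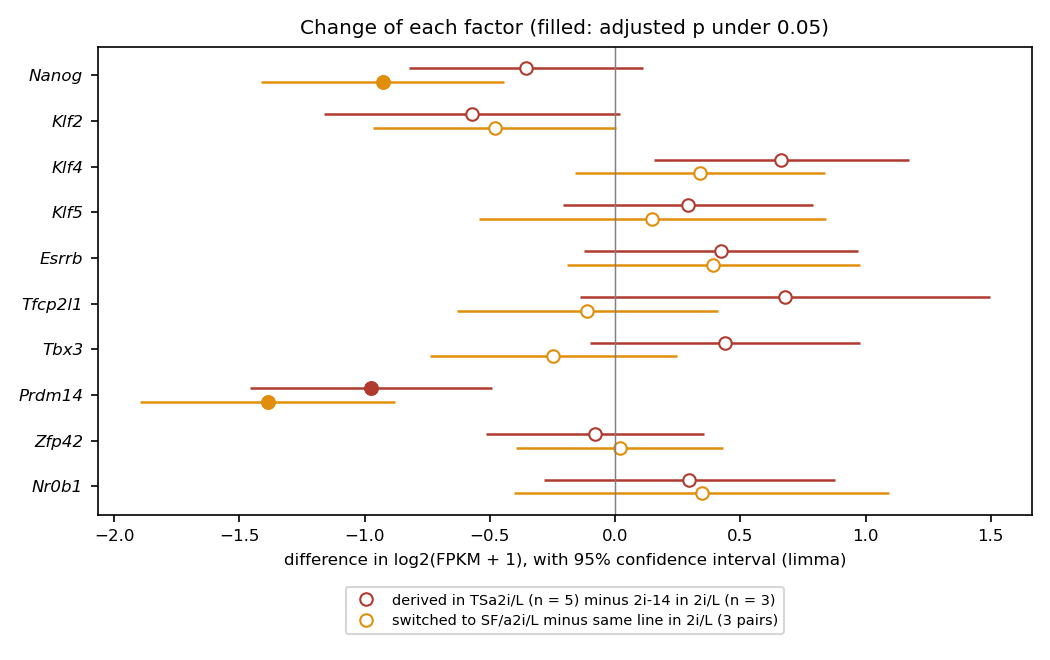
Difference in log2(FPKM + 1) of each factor (x axis) with its 95% confidence interval from limma, for TSa2i/L (n = 5) minus 2i-14 in 2i/L (n = 3) and for switched minus the same line in 2i/L (3 pairs); filled points have an adjusted p under 0.05. Prdm14 is called in both comparisons, at -0.97 and -1.39, and Nanog in the switch, at -0.93; the comparisons share 2i-14 p50.

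The second comparison asked what happened when the same line was taken out of 2i/L and grown for 5 passages in SF/a2i/L. Each line served as its own block, although 2i-O48-TKO is a derivative of 2i-O48, so these pairs are not fully independent. For wild type the 2i/L library was p50 of 2i-14. Prdm14 and Nanog fell, and the other 8 did not pass the test. Of the 10 members 2 were called, both lower, against 6.89% of the 9759 genes tested, with 2.22% called higher and 4.66% lower. This comparison shares the library 2i-14 p50 with the first.

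Prdm14 fell from 23.5 to 9.54 FPKM in 2i-14, from 39.5 to 11.3 FPKM in 2i-O48 and from 23.4 to 9.43 FPKM in the TKO line. It was lower in 3 of 3 pairs, as were 29.4% of the genes tested, and the libraries in the 2 media did not overlap, which was so, in the lower direction, for 19.8%. The log2 difference was -1.39 (SE 0.21, adjusted p = 0.0203 by limma), 2.62-fold lower. The adjusted p rose to 0.0741 without 2i-O48-TKO and to 0.144 with no filter. It ran from 0.00350 to 0.144 over 11 alternatives, with log2 differences of -1.47 to -1.22.

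The Nanog gene lies on the + strand at chr6:122657507-122664651 (NCBIM37). Nanog fell from 248 to 180 FPKM in 2i-14, from 467 to 195 in 2i-O48 and from 232 to 110 FPKM in 2i-O48-TKO. It was lower in 3 of 3 pairs, as were 29.4% of the genes tested, and without overlap, as were 19.8%. The log2 difference was -0.93 (SE 0.20, adjusted p = 0.0483 by limma), 1.90-fold lower. By line, the log2 difference was -1.26 for 2i-O48 and -1.07 for its TKO derivative. In 2i-14 it was -0.46 against p50, the lowest of its passages, -0.78 against p18 and -0.89 against p39. The call was lost with an adjusted p of 0.107 without the cell-line block, 0.259 without 2i-O48-TKO and 0.0515 to 0.179 in 4 further settings, over a range of 0.00517 to 0.259 in 11. Nanog has retrocopies in the mouse genome, and how shared reads were assigned is not given in the sources used here.

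**Figure D3:**
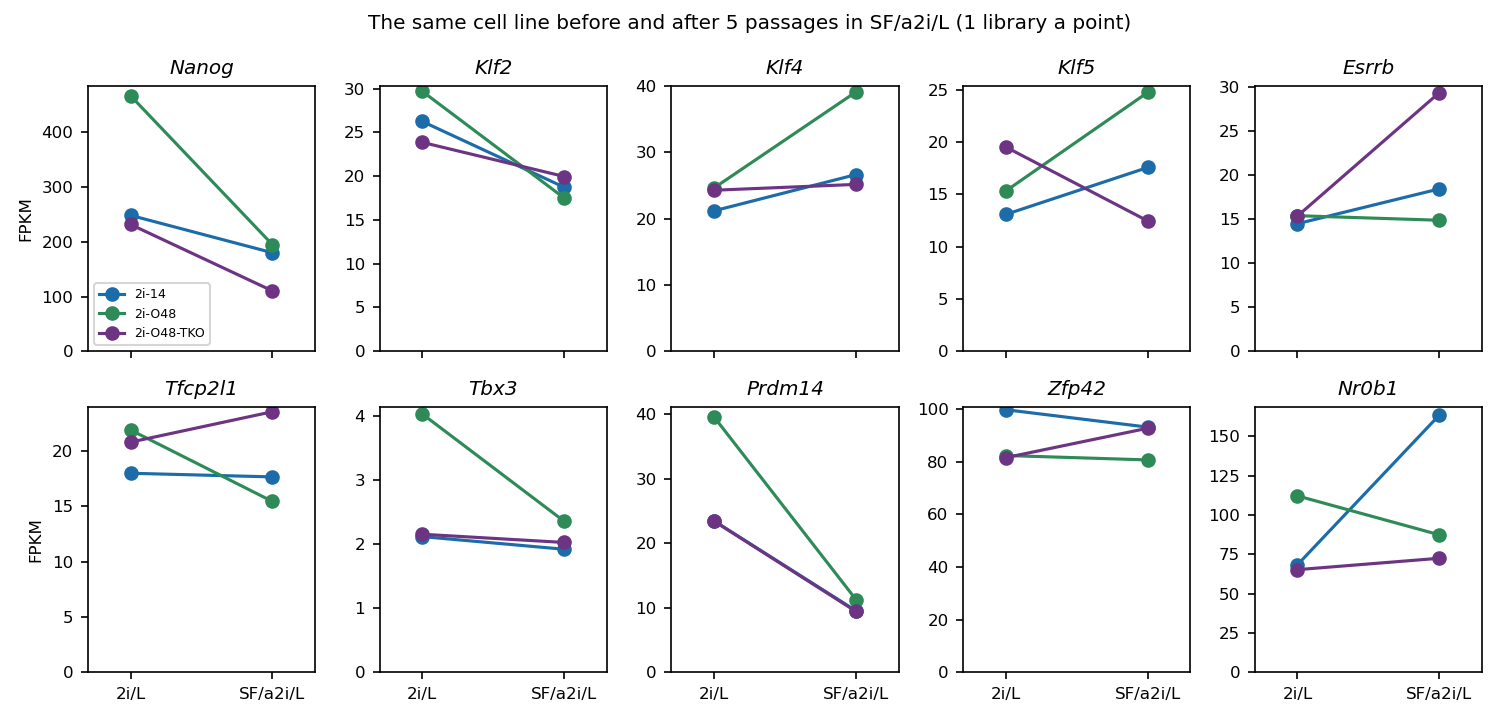
FPKM of each factor (y axes, starting at 0) in 2i/L and after 5 passages in SF/a2i/L for the wild-type line (p50 as control) and both deleted lines; each point is 1 library and lines join the same cell line (for Prdm14 the wild-type points lie under those of the TKO line). Prdm14, Nanog, Klf2 and Tbx3 are lower after the switch in all 3 lines and Klf4 is higher in all 3, and of these Prdm14 and Nanog passed the test. Of all genes tested, 29.4% were lower and 19.4% were higher in all 3 lines.

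Klf2 went from 26.2 to 18.7 FPKM in 2i-14, from 29.7 to 17.5 in 2i-O48 and from 23.9 to 19.96 FPKM in 2i-O48-TKO. All 3 pairs were lower, as in 29.4% of the genes tested, and the media did not overlap, as in 19.8%. The log2 difference of -0.48 (SE 0.20) had an adjusted p of 0.194 by limma. Klf4 went from 21.2 to 26.7, from 24.6 to 39.1 and from 24.3 to 25.2 FPKM in the same lines. It was higher in all 3 pairs, as were 19.4% of genes tested, and without overlap between media, as were 11.5%, with a log2 difference of 0.34 (SE 0.21, adjusted p = 0.352 by limma). None of the 6 libraries had raised fibroblast markers, with means of 0.168 to 0.291.

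Tbx3 was lower in 3 of 3 pairs, as were 29.4% of the genes tested. It was at 2.12 and then 1.92 FPKM in 2i-14, 4.03 and 2.36 FPKM in 2i-O48, and 2.16 and 2.03 FPKM in the TKO line. Its log2 difference was -0.25 (SE 0.20, adjusted p = 0.485 by limma), and -0.42 when p18 and p39 of 2i-14 joined its controls; p18 and p39 had 3.54 and 4.48 FPKM. The pairs were mixed in direction for the others. Esrrb was at 15.4 and then 29.4 FPKM in 2i-O48-TKO, at 14.5 and 18.5 FPKM in 2i-14, and at 15.4 and 14.9 FPKM in 2i-O48. Nr0b1 was at 112 and then 87.3 FPKM in 2i-O48 and at 65.3 and 72.5 FPKM in 2i-O48-TKO. In 2i-14 it was at 164 FPKM after the switch, against 68.4 FPKM at p50 but 113 at p39 and 167 FPKM at p18, log2 differences of 1.25, 0.53 and -0.03. Log2 differences were 0.39 for Esrrb, 0.35 for Nr0b1, 0.15 for Klf5, -0.11 for Tfcp2l1 and 0.02 for Zfp42, with SEs of 0.24, 0.31, 0.29, 0.22 and 0.17 and adjusted p of 0.356, 0.523, 0.783, 0.786 and 0.959 by limma. The median of the 10 was -0.05, against -0.09 over all genes tested.

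Set side by side, Klf2 and Klf4 separated the media more clearly as a ratio than either gene did alone. This ratio was chosen after the values were seen and has no test. In 2i/L, Klf2 stood at 2.17 (p18), 1.45 (p39) and 1.24 times (p50) Klf4 in the 2i-14 line, at 1.21 for 2i-O48 and 0.982 for its TKO derivative. In the switched lines it stood at 0.703, 0.447 and 0.793, and in TSa2i/L at 0.469 to 0.872. Every library in 2i/L was above every switched or TSa2i/L library. The share of gene pairs whose ratio does so was not counted.

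**Figure D4:**
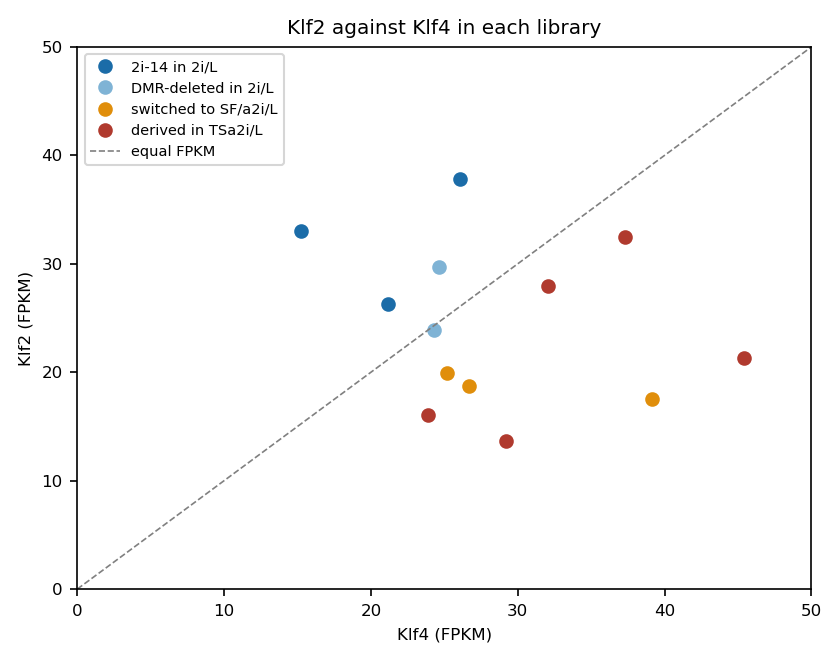
Klf2 FPKM (y axis) against Klf4 FPKM (x axis), 1 point a library, with a dashed line at equal levels. The 8 libraries switched to SF/a2i/L or derived in TSa2i/L lie below the line, at ratios of 0.447 to 0.872, and 4 of the 5 in 2i/L lie above it.

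Passage was examined within TSa2i/L, with TSa2i-14 p47 and p54 and TSa2i-C57 p58 as late and TSa2i-14 p22 and TSa2i-C57 p9 as early libraries. No gene passed the test in limma, members included (0% of 10502 genes), and 928 genes had an unadjusted p under 0.05, 3 members among them. Klf2, Klf4, Esrrb and Tbx3 were higher in every late library than in every early one, 4 of 10 members where 18.5% of all genes did so. No member was lower in every late library, where 9.72% of genes were. Klf2 was at 21.3, 28.0 and 32.5 FPKM late and at 16.0 and 13.7 early, a log2 difference of 0.82 (SE 0.24, adjusted p = 0.530 by limma). Klf4 differed by 0.51 (SE 0.22), Esrrb by 0.68 (SE 0.24) and Tbx3 by 0.55 (SE 0.22), with adjusted p of 0.564, 0.530 and 0.538 by limma.

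The fibroblast marker mean was also highest in late libraries, at 2.33 (TSa2i-14, p54) and 1.38 (TSa2i-C57, p58), although it was 0.332 in TSa2i-14 at p47. Without those 2 libraries, a choice made after the data were seen, the log2 difference was 0.49 for Klf2, 0.36 for Tbx3, 0.76 for Klf4 and 1.04 for Esrrb. These are values from 1 late library, TSa2i-14 p47, against 2 early ones, and no call is read from them. The part of those cells in the result was not tested further. In 2i-14, Klf2 was 33.0, 37.8 and 26.2 FPKM at p18, p39 and p50, so the latest passage there was the lowest. Esrrb (15.9, 21.2 and 14.5 FPKM) and Tbx3 (3.54, 4.48 and 2.12 FPKM) were also lowest at p50. Klf4 was lowest at p18, at 15.2 FPKM, against 26.1 at p39 and 21.2 at p50.

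**Figure D5:**
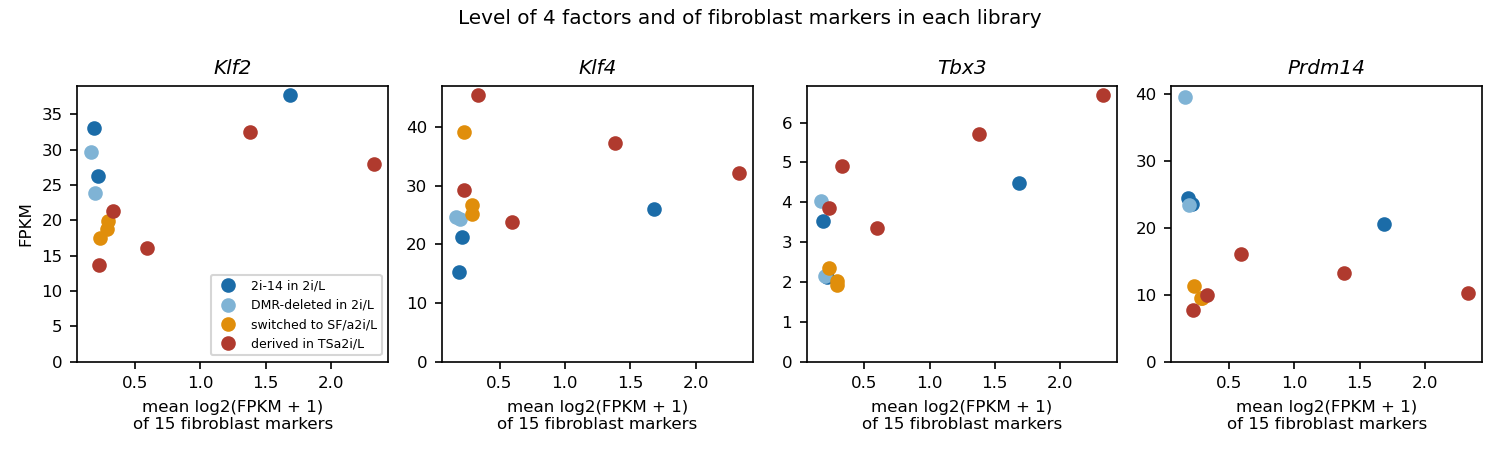
FPKM of Klf2, Klf4, Tbx3 and Prdm14 (y axes, starting at 0) against the mean log2(FPKM + 1) of 15 fibroblast markers (x axis), 1 point a library. The 3 libraries above 1.3 on the x axis include the highest Klf2 and the highest Tbx3 library. Prdm14 in them was at 20.6 FPKM in 2i-14 p39, 10.2 FPKM in TSa2i-14 p54 and 13.2 FPKM in TSa2i-C57 p58.

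Lines were compared within a medium. TSa2i-C57 and TSa2i-14 differed in no gene by limma (0% of 10502 called, 366 at an unadjusted p under 0.05). Tfcp2l1 was at 30.9, 75.1 and 51.8 FPKM in TSa2i-14 and at 23.7 and 22.1 in TSa2i-C57, a log2 difference of -1.08 (SE 0.34, unadjusted p = 0.00988 and adjusted p = 0.999 by limma). Klf5 was at 20.7, 28.6 and 27.7 against 17.5 and 19.1 FPKM, a difference of -0.45 (SE 0.24). These were the 2 members without overlap in the lower direction, where 7.55% of all genes had none. In the higher direction it was 0 members and 8.39% of genes.

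The lines with deleted DMRs were set against 2i-14 in 2i/L. No member was called by limma, none had an unadjusted p under 0.05, and 0.118% of 10164 genes were called. Nanog was at 467 FPKM for 2i-O48 and at 232 FPKM for 2i-O48-TKO, outside the 248 to 334 FPKM of 2i-14 on either side, a log2 difference of 0.16 (SE 0.30). Prdm14 was at 39.5 FPKM in 2i-O48, the highest of all 13 libraries, and at 23.4 in 2i-O48-TKO, a difference of 0.40 (SE 0.27). This was 0.04 without 2i-O48 and 0.77 without 2i-O48-TKO. Both lines had 1 library each, so the spread of a line could not be estimated.

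Of the 22 partners and inputs of the network, 21 were tested in the first and second comparisons. In the first, 2 of 21 were called, both lower, where 1.85% of all genes were called lower. In the second 1 of 21 was, also lower, where 4.66% of all genes were. The median log2 difference of the tested partners was -0.04 in the first, where that of all genes was 0.07, and -0.16 in the second, where that of all genes was -0.09. Tcf7l1, the repressor that GSK3 inhibition relieves, was at 8.70, 9.20 and 6.74 FPKM in 2i-14 and at 3.01 to 5.47 FPKM in TSa2i/L, a log2 difference of -0.86 (SE 0.20, adjusted p = 0.0287 by limma). In the switch Tcf7l1 fell from 6.74 to 1.95, from 9.65 to 3.43 and from 7.99 to 1.59 FPKM, a difference of -1.48 (SE 0.21, adjusted p = 0.0181). Sall4, a zinc finger partner of Oct4, was at 76.5, 76.3 and 53.9 FPKM in 2i-14 and at 29.0 to 42.6 FPKM in TSa2i/L, a difference of -0.93 (SE 0.19, adjusted p = 0.0149 by limma).

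Pou5f1, which encodes Oct4, and Sox2 were called in no comparison; Pou5f1 differed by 0.45 (SE 0.29) in the first and -0.60 (SE 0.27) in the second, and Sox2 by -0.09 (SE 0.21) and -0.19 (SE 0.33). Of the 14 genes of exit from the naive state, 7 were tested in the first comparison and 5 in the second, and Etv4 alone was called in each. The call was in the higher direction, where 5.72% of all genes tested were called in the first and 2.22% in the second. In the first, 5 of the 7 had log2 differences below 0, with a median of -0.21 where that of all genes was 0.07. The 7 ran from -0.48 to 1.64, and 3 had an unadjusted p under 0.05 by limma, as had 2400 of all 10387 genes. Otx2, not called, was at 0.215, 1.55 and 1.72 FPKM in 2i-14 and at 1.25 to 13.8 FPKM in TSa2i/L. In the second, 2 of 5 were below 0, with a median of 0.02 where that of all genes was -0.09. Etv4, an ETS factor induced by ERK signalling, was at 0.714, 0.818 and 0.503 FPKM in 2i-14 and at 1.16 to 2.13 FPKM in TSa2i/L, a difference of 0.64 (SE 0.17, adjusted p = 0.0486 by limma). All 3 libraries of 2i-14 lay below the filter of 1 FPKM, so Etv4 was tested only through its TSa2i/L levels and could only be called higher. In the switch, likewise, Etv4 passed the filter only with its switched libraries. It rose by 1.13 (SE 0.25, adjusted p = 0.0494) in the switch, from 0.503 to 3.17 FPKM in 2i-14, from 2.94 to 4.60 FPKM in 2i-O48 and from 0.327 to 2.54 FPKM in the TKO line, so the media overlapped through 2i-O48.

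Across all 13 libraries, which share media and lines, the levels of Nanog and Prdm14 were the most alike pair of members, with a Pearson r of 0.781 on the log2 scale. Esrrb and Tfcp2l1 followed at 0.722, and Klf4 and Prdm14 were the least alike at -0.581. Among 10040 genes with a mean of at least 1 FPKM, the most like Prdm14 was Adam17 (r = 0.962), the most like Nanog was Tceb3 (r = 0.955) and the most like Klf2 was Ticrr (r = 0.948). The closest genes to Klf4 and Tfcp2l1 were Rmdn1 (r = 0.910) and Clasp1 (r = 0.923). These are descriptions over libraries that differ in medium, line and passage.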

How the data were processed

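RNA-seq values of 13 libraries were used; the bisulfite and chromatin samples of the series were not analysed here. The authors amplified full-length cDNA from 500 to 1000 haploid cells, mapped reads to mm9 with TopHat (TopHat2 2.0.11 in the submitters' processing notes) and deposited FPKM values from Cufflinks 2.2.1. The annotation and any scaling between libraries are not given in the sources used here. Amplification from few cells and FPKM scaling to the library total can both move a single gene's value.

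Rows of the same symbol were summed (24525 rows, 268 repeated symbols), and tests were made on log2(FPKM + 1), so fold changes understate those of low genes. Each comparison was fitted with limma 3.58.1 in R 4.3.3 over genes reaching 1 FPKM in at least the number of libraries of the smaller group, with an intensity trend and Benjamini-Hochberg adjustment at 0.05. The exact permutation tests, two-sided and 10 in number with no adjustment, used scipy 1.17.1 in Python 3.11.15; figures used matplotlib 3.10.9. Tests were also tried on simulated data. Depth was estimated from the smallest FPKM values of 3700 genes.

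The switch comparison was blocked on the cell line named in the labels. Deviations of the paired libraries correlated at 0.17 for 2i-14, -0.14 for 2i-O48 and 0.36 for 2i-O48-TKO. By this measure 2i-O48 in 2i/L was most like switched 2i-14, while the other lines were most like their own switched library. The text names all members, the listed partner and exit genes with an adjusted p under 0.05, and Pou5f1, Sox2, Col1a1 and Dcn. Otx2 and the trophoblast markers are named for their levels only. Alternatives were another pseudocount, filter, scaling, block or set of libraries. The members and lists were chosen with earlier results of these data known. Promoter sequences are RefSeq's, on GRCm38.p6; the FPKM files are on mm9, and no coordinates were converted.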

Additional observations from a re-analysis of the deposited data

Results flagged for a closer look

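In 4 of the 10 members the late passages of TSa2i-14 and of TSa2i-C57 lay on opposite sides of their own early passage. Nanog differed by -0.32 on the log2(FPKM + 1) scale between the late (mean of p47 and p54) and early passages of TSa2i-14 and by 0.99 in TSa2i-C57. Tfcp2l1 differed by 0.99 in TSa2i-14 and by -0.10 in TSa2i-C57. Prdm14 differed by -0.62 in TSa2i-14 and by 0.70 in TSa2i-C57. Zfp42 differed by -0.25 in TSa2i-14 and by 0.26 in TSa2i-C57. Opposite directions were also seen in 39.1% of all 10502 genes, and TSa2i-C57 had 1 library at each passage, so the difference between the lines was not tested. Within the 5 TSa2i/L libraries no member had a single library far enough from the rest to stand out by Dixon's test.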

How the results depend on the processing

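Over 18 alternatives of the first comparison 0 or 1 member was called, and 229 to 1316 genes against 786: 374 with no filter, 458 at a mean of at least 5 FPKM, 468 with TSa2i-14 only, 1316 once both deleted lines joined the 2i/L group, and 229 without the 3 libraries rich in fibroblast markers, with 383 to 846 when a library was left out. Members called were 0 with no filter, with TSa2i-14 only and without the 3 libraries, and 0 to 1 when a library was left out. Zfp42 turned to 0.0513 once both deleted lines joined the 2i/L group and ran from -0.27 to 0.13, and Nr0b1 from -0.0356 to 0.60, when a library was left out. Of the genes called, 594 were higher and 192 lower as deposited; with median centring, which moved the median of all genes from 0.07 to -0.05, the numbers were 359 and 280, and 365 and 290 with quantile normalization.

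In the switch the number of genes called was 0 with no filter, 369 at a mean of at least 5 FPKM, 1505 when p18 and p39 of 2i-14 joined the controls, and 311 to 1461 when a line was left out, against 672. Without the replicate block, 778 genes and 1 member were called, Nanog being the member lost; the block changed no other call of a member. Members called were 1 with a pseudocount of 0.1, at a mean of at least 5 FPKM and with median centring, 0 with no filter, and 0 to 2 when a line was left out. Median centring moved the median of all genes from -0.09 to 0.07, with 386 higher and 314 lower calls against 217 and 455. Tfcp2l1 turned to 0.0547 (median centring) and 0.0404 (quantile normalization); Klf5 turned to -0.0017 and Zfp42 to -0.0190 when p18 and p39 joined the controls. Leaving out a line gave -0.252 to 0.0730 for Tfcp2l1, -0.11 to 0.53 for Klf5, -0.10 to 0.70 for Nr0b1 and -0.0635 to 0.0769 for Zfp42.

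Leaving out a library gave 0 to 8 genes for passage, 0 to 20 for the deleted lines against 12, and 0 to 9 for the lines in TSa2i/L, and no member in any. The deleted lines gave 0 genes with no filter, and Nanog ran from -0.35 to 0.66 when a library was left out. With the cell line as a replicate block, passage had 0 calls, with Klf2 at 0.84. The lines in TSa2i/L gave 62 genes without the 2 libraries rich in fibroblast markers, a fit of 1 TSa2i-C57 library against 2 of TSa2i-14 in which the lone library is assumed to vary like the others. The permutation test passed 2 members, Prdm14 (p = 0.00794) and Klf4 (p = 0.0317), once both deleted lines joined (exact). The cause of these shifts was not tested. Whether depth moved the members' values was not tested.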
